A study of Homo sapiens with 6 samples.

Results

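The 10 genes described here are ligands of the transforming growth factor beta (TGF-β) family and FST, an extracellular inhibitor of some of them. They are the TGF-β genes TGFB1, TGFB2 and TGFB3, the activin subunit genes INHBA and INHBB, the bone morphogenetic protein genes BMP2, BMP4 and BMP7, the divergent ligand gene GDF15, and FST. They were taken by their symbols from a table of read counts on 25349 genes. All 10 have a row in the table, and 9 of them had enough counts to be tested among 14661 genes.

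Ligands of this family are secreted as dimers that bring together a pair of type I and a pair of type II receptor kinases on the cell surface. TGF-β and activin receptors phosphorylate SMAD2 and SMAD3, BMP receptors phosphorylate SMAD1, SMAD5 and SMAD9, and both kinds of SMAD enter the nucleus with SMAD4. In stratified epithelia TGF-β is known for its restraint of keratinocyte division, and in squamous carcinomas also for its part in invasion and matrix production.

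The cells were SCC-9, an established line from a human squamous carcinoma of the tongue, grown with serum and hydrocortisone. The cells were transfected with siRNA at 10 nM on days 0 and 2 and harvested for RNA on day 4. In the siE7 group the siRNA was directed at exon 7 of MKI67, which encodes the proliferation antigen Ki67, and in the siNC group it was nonspecific. Each group consists of 3 poly(A) libraries. More than one siRNA to exon 7 is listed in the methods, without the name of the one used here. All values come from 1 cell line, and no label says that the libraries of a group came from separate cultures, so the p-values measure the spread between these libraries only. Levels are given in CPM, the usual unit for counts on a gene relative to all counts of its library, here after scaling for composition, and p-values are from edgeR, adjusted over all tested genes by the method of Benjamini and Hochberg. A gene passed the test at an adjusted p below 0.05, and it was called a differentially expressed gene (DEG) where its log2 fold change was also beyond 1 in either direction.

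The libraries held between 25608192 and 29550264 counts, and 3 counts corresponded to between 0.0981 and 0.122 CPM. The targeted gene MKI67 was at 1059 ± 26.7 CPM (SD, n = 3) with siNC and at 115 ± 8.70 CPM with siE7, 9.24-fold lower, although counts on a whole gene cannot tell its exon 7 from the rest. Replicate 1 of siE7 stood apart from the other siE7 libraries, with a chi-square per degree of freedom of 61.1 and 72.7 against them, where all other pairs within a group lay between 5.54 and 6.22. Values without this library are therefore given for each named gene whose call they change, and 58.4% of all tested genes passed without it (28.9% higher and 29.5% lower). Of 10 squamous epithelial markers all were measured, with a summed level of 24956 to 26463 CPM with siNC and 22684 to 29046 CPM with siE7. With all libraries 1 of these markers was higher and 6 were lower by the test, beside 18.0% and 16.0% of all tested genes. Of 8 fibroblast markers 2 were high enough to test and neither passed, with summed levels of 16.6 to 19.7 and 18.3 to 24.2 CPM. The 5 endothelial markers together reached at most 0.568 CPM, and the 2 leukocyte markers with a row, CD14 and CD68, at most 3.60 CPM. In these bulk libraries fewer cells with a transcript and less of it per cell cannot be told apart.

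Transcripts of both activin subunits, of FST and of TGFB2 were lower with siE7, and those of BMP2 were higher. By the test, 5 of the 9 tested genes passed, where 34.0% of all tested genes did. The 1 that was higher and the 4 that were lower stand beside shares of 18.0% and 16.0% of all tested genes. INHBA, INHBB, FST and BMP2 were DEGs, 4 of 9 beside 12.2% of all tested genes (7.38% higher and 4.84% lower). The values of both groups were fully separated for 8 of the 9 genes, and for 47.6% of all tested genes. The median log2 fold change of the 9 was −0.79, and that of all tested genes was 0.08. When libraries were scaled by their totals alone, the median of all genes moved up by 0.169 on the log2 scale. The 5 genes that passed above then passed with the same directions, and TGFB3 also passed, as higher (log2 fold change 1.22, adjusted p = 0.034). In that setting 38.6% of all genes passed (27.5% higher and 11.1% lower).

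**Figure D1:**
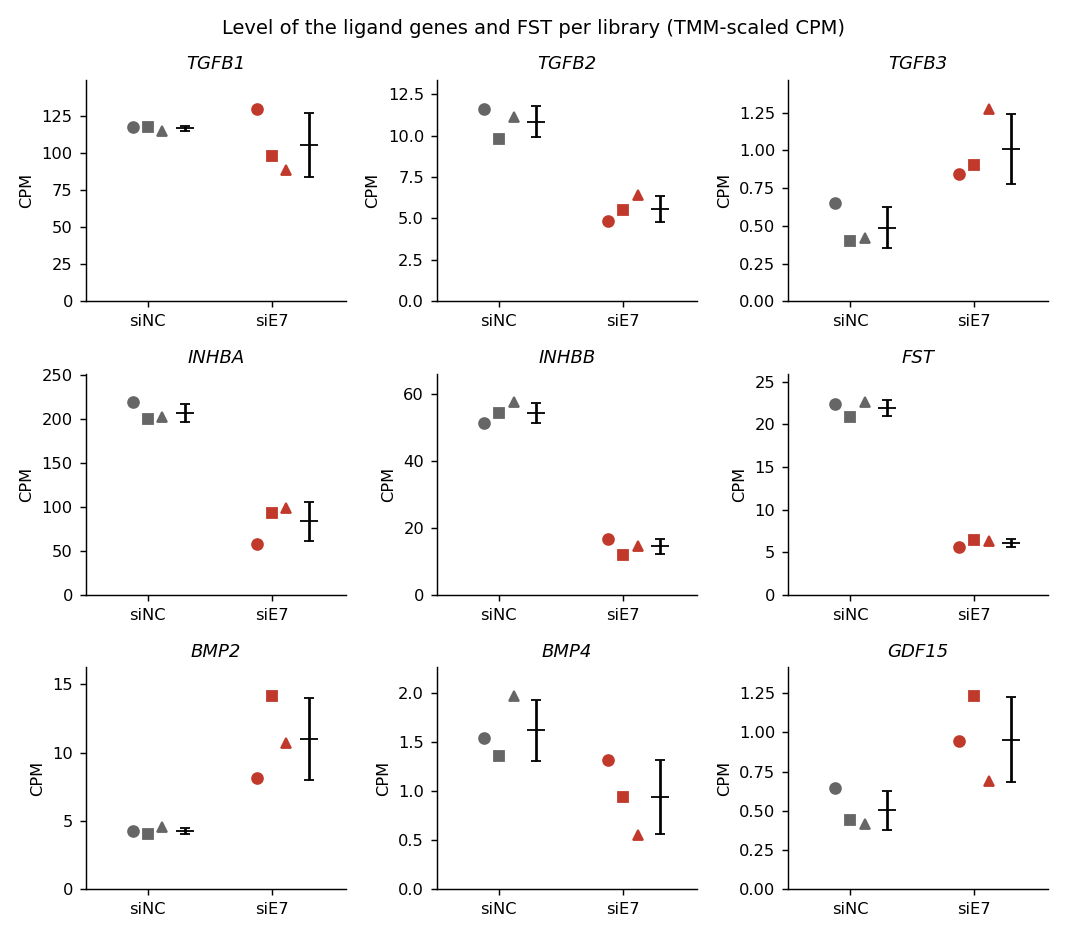
Level in CPM of the 9 tested genes in each library, each gene in its own panel with its own linear axis. The groups siNC and siE7 are side by side, with symbols for replicates 1 to 3 (circle, square, triangle) and bars for the mean ± SD of 3 libraries. All siE7 libraries lie below the siNC libraries for INHBA, INHBB, FST and TGFB2 and above them for BMP2, and the groups overlap for TGFB1.

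**Figure D2:**
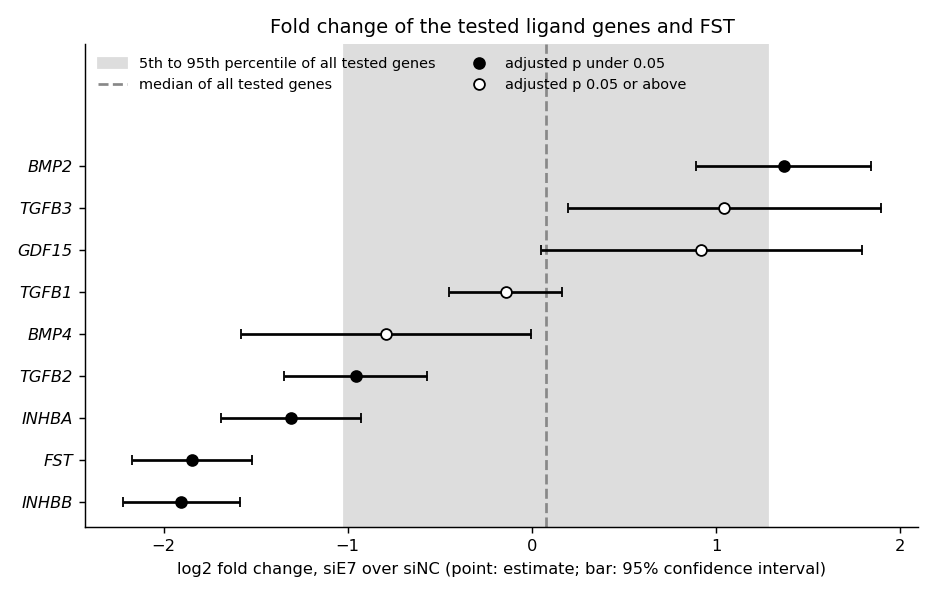
Log2 fold change of siE7 over siNC for the 9 tested genes, with 95% confidence intervals, beside a grey band for the 5th to 95th percentile of all tested genes (−1.02 to 1.28) and a dashed line at their median of 0.08. INHBB, FST and INHBA lie below the band, BMP2 lies above it, and the interval of TGFB1 crosses 0.

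Of the TGF-β ligands, TGFB1 encodes the form most abundant in many tissues, and it had the highest level of the 10 genes per kilobase of exon in both groups. It was at 117, 118 and 115 CPM in the siNC libraries and at 130, 98.3 and 88.8 CPM in siE7 replicates 1, 2 and 3. The siNC libraries thus lay close together, while siE7 replicate 1 was above all of them and the other siE7 libraries were below. The log2 fold change was −0.14 (SE 0.141, 95% confidence interval −0.45 to 0.17, adjusted p = 0.458), and it was 0.02 without composition scaling. Without siE7 replicate 1 it was −0.38 and passed the test (adjusted p = 8.4e-07). TGFB1 (chromosome 19, 41301587 to 41353922, minus strand, GRCh38) shares 215 exonic bases with HNRNPUL1 on the other strand, a gene with 14875 to 16516 counts with siNC and 6158 to 7511 with siE7. Whether strand was used in counting is not given in the sources used here, and the part of HNRNPUL1 reads in the values of TGFB1 was not tested.

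TGFB2, the form with the lowest affinity for the type II receptor in the absence of betaglycan, was at 11.6, 9.81 and 11.1 CPM with siNC and at 4.82, 5.51 and 6.41 CPM with siE7. Every siE7 library was below every siNC library. Its log2 fold change was −0.96 (SE 0.177, adjusted p = 0.0018), 1.94-fold lower, just short of the fold required of a DEG. It lay beyond that limit with DESeq2 (−1.02), with RLE size factors (−1.01) and without siNC replicate 2 (−1.03) or siE7 replicate 3 (−1.07). TGFB2 lies on chromosome 1 from 218345336 to 218444619 on the plus strand. It shares 701 exonic bases with the antisense gene TGFB2-AS1, which had at most 1 count in a library, and 1371 with TGFB2-OT1 on its own strand, which was not analysed here.

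TGFB3, the third TGF-β, was near the lower end of what could be tested, with 16, 10 and 11 reads in the siNC libraries and 25, 25 and 39 in the siE7 libraries. These were 0.488 ± 0.139 CPM and 1.01 ± 0.234 CPM, and the groups did not overlap. The log2 fold change of 1.04 (SE 0.388, 95% confidence interval 0.20 to 1.89) did not pass after adjustment (adjusted p = 0.057). It passed without siE7 replicate 1 (1.10, adjusted p = 0.043), without composition scaling (adjusted p = 0.034) and where each library had to hold at least 10 counts (adjusted p = 0.032), and over all alternatives its adjusted p ranged from 0.032 to 0.21. The gene (chromosome 14, 75958097 to 75983011, minus strand) overlaps IFT43, with which it shares 0 exonic bases and which had 162 to 197 counts with siNC and 565 to 612 with siE7. It also shares 163 exonic bases with TGFB3-AS1, which was not analysed here. The part of reads from these genes in the values of TGFB3 was not tested.

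Activins are dimers of the β subunits encoded by INHBA and INHBB, and follistatin, the product of FST, binds them and keeps them from their receptors. The 250 bases before the start of these 3 genes are shown because all 3 were lower with siE7 and FST is itself a known target gene of activin. The sequences are from RefSeq on GRCh38.p14, read 5′ to 3′ on the strand of the gene, with matches to the searched motifs in capitals. INHBA is at chr7:41703091-41703340 (minus strand), INHBB at chr2:120345886-120346135 (plus strand) and FST at chr5:53480379-53480628 (plus strand).
INHBA: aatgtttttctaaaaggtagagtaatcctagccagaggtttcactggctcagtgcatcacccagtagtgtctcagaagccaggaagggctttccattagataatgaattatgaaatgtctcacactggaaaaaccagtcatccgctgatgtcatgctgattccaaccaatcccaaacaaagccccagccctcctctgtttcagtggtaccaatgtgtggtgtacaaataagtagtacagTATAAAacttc
INHBB: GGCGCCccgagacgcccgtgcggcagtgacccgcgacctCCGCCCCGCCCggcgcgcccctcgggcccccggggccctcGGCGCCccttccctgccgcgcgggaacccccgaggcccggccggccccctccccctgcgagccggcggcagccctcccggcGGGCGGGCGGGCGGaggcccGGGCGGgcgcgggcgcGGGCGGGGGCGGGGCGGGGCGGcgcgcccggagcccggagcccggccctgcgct
FST: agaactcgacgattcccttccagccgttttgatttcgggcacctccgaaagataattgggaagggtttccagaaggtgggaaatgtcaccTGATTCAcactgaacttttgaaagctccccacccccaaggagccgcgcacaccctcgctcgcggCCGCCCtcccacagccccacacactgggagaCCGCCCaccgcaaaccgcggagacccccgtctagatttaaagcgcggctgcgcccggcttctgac

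The motifs searched on both strands were the AP-1 site TGANTCA, the cyclic AMP response element TGACGTCA, the SMAD box CAGAC, the GC box GGGCGG, the E-box CACGTG, the TEAD site GGAATG and the GC-rich SMAD site GGCGCC, and the TATA box TATAAA was searched on the strand of the gene. Overlapping matches were each counted. The window of INHBA held 1 TATA box, 11 bases before the start, and had a GC content of 42.8%, where the median over all promoters was 58.0%. That of INHBB was 89.6% G and C and held 10 GC boxes and 2 GC-rich SMAD sites. In the window of FST there was 1 AP-1 site, 160 bases before the start, and there were 2 GC boxes, at 96 and 65 bases. No motif was found in all 3 windows. Among windows of the same length, 6.80% held the TATA box, 42.6% a GC box, 16.4% the GC-rich SMAD site and 6.57% the AP-1 site. These matches describe letters and not binding. The RefSeq start of INHBA lies inside the longer gene that GENCODE v44 draws (chromosome 7, 41667168 to 41705834).

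INHBA, which encodes the subunit of activin A, was at 219, 200 and 203 CPM with siNC and at 58.6, 93.4 and 99.4 CPM with siE7. The groups did not overlap, and siE7 replicate 1 was the lowest of the 6 libraries. This was a log2 fold change of −1.31 (SE 0.174, 95% confidence interval −1.69 to −0.93, adjusted p = 2.4e-04), or 2.47-fold lower. It was −1.17 and passed without siE7 replicate 1. The antisense gene INHBA-AS1 shares 248 exonic bases with it and had 12 counts or fewer in every library, beside at least 1737 on INHBA.

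INHBB, which encodes the subunit of activin B, had the lowest fold change of the 10 genes. It was at 51.3, 54.2 and 57.4 CPM with siNC and at 16.7, 12.1 and 14.8 CPM with siE7, so that the highest siE7 library was well below the lowest siNC library. The log2 fold change was −1.90 (SE 0.144, 95% confidence interval −2.22 to −1.59, adjusted p = 6.3e-06), 3.74-fold lower, and 0.798% of all tested genes had a lower or equal one. INHBB lies on chromosome 2 from 120346136 to 120351803 and overlaps no other annotated gene.

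FST was at 22.4, 20.9 and 22.6 CPM with siNC and at 5.60, 6.41 and 6.31 CPM with siE7. Both groups were tight and far apart. Its log2 fold change was −1.85 (SE 0.149, 95% confidence interval −2.17 to −1.52, adjusted p = 8.3e-06), 3.59-fold lower. The transcripts of the inhibitor and of both subunits that it binds were thus all lower with siE7.

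Ratios of 2 genes in the same library do not depend on the scaling, and they show whether such genes changed by the same factor. Reads on INHBA were 9.75, 9.60 and 8.98 times those on FST with siNC and 10.5, 14.6 and 15.7 times with siE7. This ratio was 1.42-fold higher with siE7, and the groups did not overlap (difference of 0.50 on the log2 scale, exact two-sided permutation p = 0.10, adjusted p = 0.175 over 7 ratios). With 3 libraries against 3 the test cannot give a p below 0.1. Reads on INHBB were 2.29, 2.60 and 2.55 times those on FST with siNC and 2.98, 1.89 and 2.34 times with siE7. These values overlapped, and the log2 difference was −0.07 (exact permutation p = 0.80). The ratio of INHBB to INHBA was 0.234, 0.271 and 0.283 with siNC and 0.284, 0.130 and 0.149 with siE7. Replicate 1 of siE7 lay beside the highest siNC library and the other siE7 libraries lay below all of siNC, so a difference between the fold changes of the subunits was not larger than the spread (log2 difference −0.57, exact permutation p = 0.40).

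**Figure D3:**
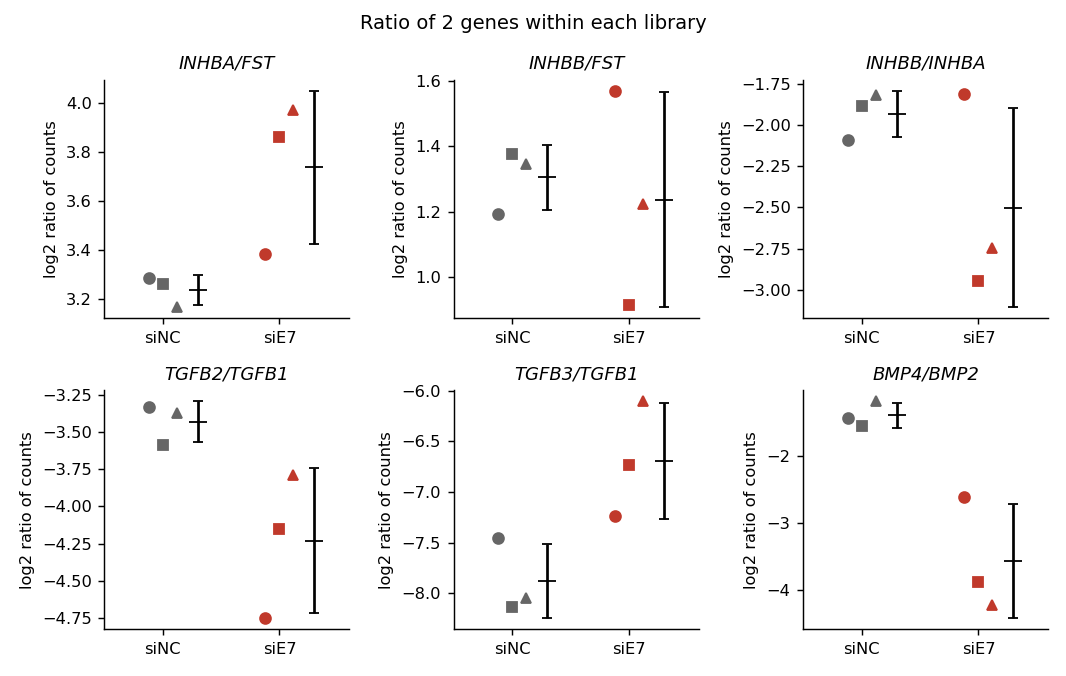
Log2 ratio of the reads on 2 genes in the same library for each pair compared except BMP7 against BMP2, which is not drawn. The groups siNC and siE7 are side by side, with symbols for replicates 1 to 3 (circle, square, triangle) and bars for the mean ± SD of 3 libraries. BMP4 against BMP2 is at −1.39 ± 0.189 with siNC and at −3.57 ± 0.850 with siE7 without overlap, and the values of INHBB against FST overlap.

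BMP2 was the gene of the 10 that rose by the test. It encodes an osteogenic ligand that signals through SMAD1 and SMAD5, and it was at 4.21, 4.04 and 4.51 CPM with siNC and at 8.13, 14.1 and 10.7 CPM with siE7. All siE7 libraries were above all siNC libraries, and they were spread more widely. BMP2 had a log2 fold change of 1.37 (SE 0.217, 95% confidence interval 0.89 to 1.84, adjusted p = 7.4e-04), 2.58-fold higher. BMP2 lies on chromosome 20 from 6767686 to 6780246 and overlaps no other annotated gene.

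BMP4, a close relative of BMP2 that uses the same type I receptors, was at 1.54, 1.36 and 1.97 CPM with siNC and at 1.32, 0.942 and 0.556 CPM with siE7. The groups did not overlap, but the highest siE7 library was next to the lowest siNC library. The log2 fold change of −0.79 (SE 0.359, 95% confidence interval −1.58 to −0.01) did not pass (adjusted p = 0.109). It was −1.18 and passed when siE7 replicate 1 was left out (adjusted p = 0.0078). Reads on BMP4 were 0.365, 0.337 and 0.437 of those on BMP2 with siNC and 0.162, 0.0667 and 0.0520 of them with siE7, a 4.53-fold lower ratio without overlap (log2 difference −2.18, exact two-sided permutation p = 0.10, adjusted p = 0.175). BMP4 shares 506 exonic bases with an antisense gene that was not analysed here. BMP7, known from kidney and bone, had 0 counts in the siNC libraries and 2, 0 and 0 counts in the siE7 libraries. It was under the limit of 3 counts in each library, and no difference was detectable at this depth.

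GDF15, a stress-induced ligand of the receptor GFRAL, had 16, 11 and 11 reads with siNC and 28, 34 and 21 with siE7. Its level was 0.502 ± 0.127 CPM with siNC and 0.954 ± 0.273 CPM with siE7, without overlap. The log2 fold change of 0.92 (SE 0.398, 95% confidence interval 0.05 to 1.79) did not pass after adjustment (adjusted p = 0.095), nor under any alternative tried, where the adjusted p lay between 0.051 and 0.30.

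Leaving out single libraries did not turn the direction of any of the 9 genes. For INHBA, INHBB, FST, BMP2 and TGFB2 the test was passed with each library left out in turn. Only the removal of siE7 replicate 1 added calls, for TGFB1, TGFB3 and BMP4, so that 8 of the 9 genes passed, beside 58.4% of all genes in that setting.

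**Figure D4:**
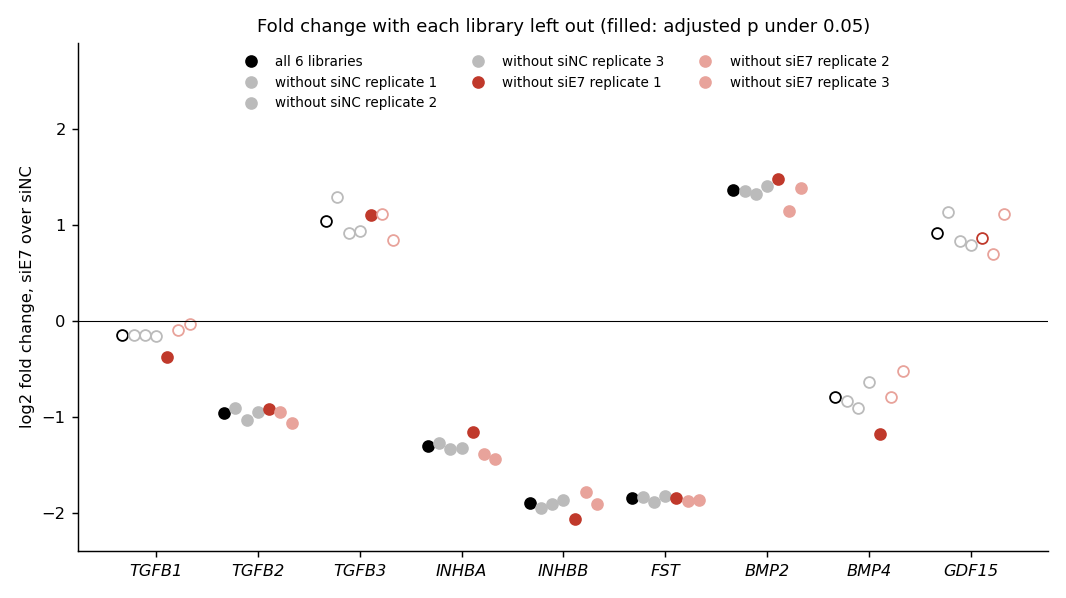
Log2 fold change of siE7 over siNC for each of the 9 tested genes with all libraries and with each library left out, where filled symbols mark an adjusted p below 0.05. The symbols of INHBA, INHBB, FST, TGFB2 and BMP2 are filled throughout, and those of TGFB1, TGFB3 and BMP4 are filled only without siE7 replicate 1.

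Per kilobase of exon, the 10 genes could be ranked within a group. The length used was that of all annotated exons of a gene together, and not that of the transcripts expressed in these cells. The ranks and shares depend on it. INHBA has 8284 such bases and TGFB1 3264, and in CPM alone INHBA was above TGFB1 with siNC (207 against 117). With siE7 INHBA was below TGFB1 in CPM (83.8 against 106). With siNC the order of levels in CPM per kilobase was TGFB1 (35.8 ± 0.484), INHBA (25.0 ± 1.22), INHBB (16.9 ± 0.956), FST (7.98 ± 0.346), TGFB2 (1.79 ± 0.154), BMP2 (1.20 ± 0.0661), BMP4 (0.524 ± 0.101), GDF15 (0.240 ± 0.0610), TGFB3 (0.0935 ± 0.0265) and BMP7 (no reads). No neighbours in this order overlapped. With siE7 BMP2 stood 4th at 3.10 ± 0.849, after TGFB1 (32.4 ± 6.64), INHBA (10.1 ± 2.66) and INHBB (4.53 ± 0.716). It was followed by FST (2.22 ± 0.161), TGFB2 (0.922 ± 0.132), GDF15 (0.457 ± 0.131), BMP4 (0.303 ± 0.123), TGFB3 (0.193 ± 0.0447) and BMP7. In that group the libraries overlapped between INHBB and BMP2, BMP2 and FST, GDF15 and BMP4, and BMP4 and TGFB3. TGFB1 made up 95.0% ± 0.464 of the transcripts of the TGF-β ligands per kilobase with siNC and 96.5% ± 1.11 with siE7, so the isoform that changed by the test, TGFB2, was the lesser part of them. BMP2 made up 69.8% ± 2.83 of the BMP transcripts with siNC and 90.4% ± 5.63 with siE7.

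The other genes of the pathway were described by lists written by hand, ordered from ligand to target. Of 24 further ligands of the family 11 had a row, and the others were not analysed here. Among those 11, 2 could be tested, of which 1 was higher and 1 lower, beside 18.0% and 16.0% of all tested genes. INHBE, a further activin subunit known from liver, was at 0.527, 0.360 and 0.341 CPM with siNC and at 3.24, 1.85 and 2.88 CPM with siE7 (log2 fold change 2.69, SE 0.350, adjusted p = 2.1e-04). INHBE had only 13, 9 and 9 reads in the siNC libraries. The other tested ligand was GDF11, close to myostatin, at −0.81, named after its values were seen.

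Before they act, TGF-β ligands are cut by proprotein convertases, held latent by binding proteins and released at the cell surface. Of 12 tested genes of latency, processing and activation 1 was higher and 7 were lower, beside 18.0% and 16.0% of all tested genes. Their median log2 fold change was −0.60. LTBP2, a matrix protein of the latent TGF-β binding family, was at 88.4 ± 1.85 CPM with siNC and at 17.1 ± 2.70 CPM with siE7, 5.15-fold lower (adjusted p = 9.4e-07). THBS1, a matrix protein that can activate latent TGF-β, fell from 1436 ± 114 to 311 ± 30.1 CPM, 4.62-fold lower (adjusted p = 6.6e-07). LTBP1, which tethers latent TGF-β to the matrix, was higher at 1.12 against 0.419 CPM (log2 fold change 1.40, adjusted p = 0.020), and this call was lost with DESeq2 (adjusted p = 0.051), without any 1 siNC library (0.053 to 0.083) and without siE7 replicate 3 (0.078). Of the 7 lower genes, FURIN, BMP1 and ITGAV, named after their values were seen, lost their call without any 1 siNC library. FURIN and BMP1 also lost it without siE7 replicate 2 or 3, and BMP1 and ITGAV without composition scaling. With siE7 replicate 1 left out 10 genes of the list were lower, where 29.5% of all genes were, and without composition scaling 5 were, where 11.1% of all genes were.

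Of 7 tested genes listed as secreted antagonists 5 were lower and 0 higher, beside 16.0% and 18.0% of all tested genes. The median was −0.80. Of the lower genes TWSG1, named after its values were seen, lost its call without any 1 siNC library and without composition scaling. BMPER, a modulator of BMPs, was at 3.92 ± 0.458 and 1.16 ± 0.275 CPM with siNC and siE7, and the BMP inhibitor NOG (noggin) at 3.18 ± 0.335 and 1.06 ± 0.570 CPM. Their log2 fold changes were −1.76 (SE 0.259, adjusted p = 4.5e-04) and −1.60 (SE 0.364, adjusted p = 0.0061). FSTL3, a second activin-binding protein that was named after its values were seen, did not pass the test, at 86.2 ± 4.40 and 103 ± 20.4 CPM (log2 fold change 0.25, 95% confidence interval −0.06 to 0.56), but passed as higher without composition scaling (0.41, adjusted p = 0.021).

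Of 10 tested receptors and co-receptors 3 were lower and 0 higher, beside 16.0% and 18.0% of all tested genes, and the median was 0.00. TGFBR2, the type II receptor of TGF-β and the receptor gene with the most reads, was at 63.6, 60.0 and 61.8 CPM with siNC and at 25.4, 29.2 and 27.9 CPM with siE7. The groups were far apart, with a log2 fold change of −1.17 (SE 0.116, adjusted p = 3.3e-05). The co-receptor ENG (endoglin) fell from 3.48 to 1.31 CPM (log2 fold change −1.41, SE 0.267, adjusted p = 0.0023), and BMPR2, the type II receptor of BMPs that was named after its values were seen, had −0.72. The type I receptors ACVR1B, for activin, and TGFBR1, for TGF-β, had values of 0.04 and 0.37 (95% confidence interval of TGFBR1 −0.10 to 0.83) and did not pass. With siE7 replicate 1 left out TGFBR1 passed at 0.52 (adjusted p = 3.6e-04) and was 1 of 2 receptor genes that were higher, where 28.9% of all genes were.

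Of 17 tested SMADs and intracellular regulators 2 were higher and 3 were lower, beside 18.0% and 16.0% of all tested genes. The median was 0.18. SMAD6, an inhibitor of BMP signalling that BMPs induce, was 8.95-fold higher, from 1.32 ± 0.158 to 11.9 ± 1.96 CPM (adjusted p = 3.3e-06). SKI, a co-repressor of SMAD3 and SMAD4, had a log2 fold change of −1.04 (SE 0.128, adjusted p = 1.5e-04). PMEPA1, PPM1A and TGIF1, the genes of the list with the most reads, had 0.06, −0.24 and −0.04 and did not pass. Without siE7 replicate 1 PPM1A passed at −0.22 (adjusted p = 0.0079) and TGIF1 at −0.15 (adjusted p = 0.043), although TGIF1 was at 0.13 without composition scaling. Without that library the list held 8 higher and 7 lower genes of 17, beside 28.9% and 29.5% of all genes.

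Among 18 tested response genes of TGF-β and activin 3 were higher and 4 were lower, beside 18.0% and 16.0% of all tested genes. The median was 0.00. SMAD7, named after its values were seen, is counted as higher here, among the SMADs and among the BMP response genes (log2 fold change 0.78, adjusted p = 0.0031). The lower DEGs were THBS1, which is also counted above, and FN1 (fibronectin), at 18519 and 7778 CPM (log2 fold change −1.25, SE 0.131, adjusted p = 4.9e-05). JUNB, counted as higher, and IL11, counted as lower, were named after their values were seen. JUNB lost its call without any 1 siNC library. IL11 lost its call without siNC replicate 2 or 3, without siE7 replicate 3 and without composition scaling. Without siE7 replicate 1, 8 genes of the list were lower, beside 29.5% of all genes. Among 10 tested BMP response genes 7 were higher and 0 lower, beside 18.0% and 16.0% of all tested genes, at a median of 1.10. The 7 include SMAD6 and SMAD7 again and ID4, ID2 and ID1, inhibitors of differentiation factors, at 3.07, 2.65 and 1.01. ATOH8 had no read in the siNC libraries and was at least 4.92-fold higher with siE7 against the limit of 3 counts per library, and the median of the list was the same with ATOH8 at that bound.

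**Figure D5:**
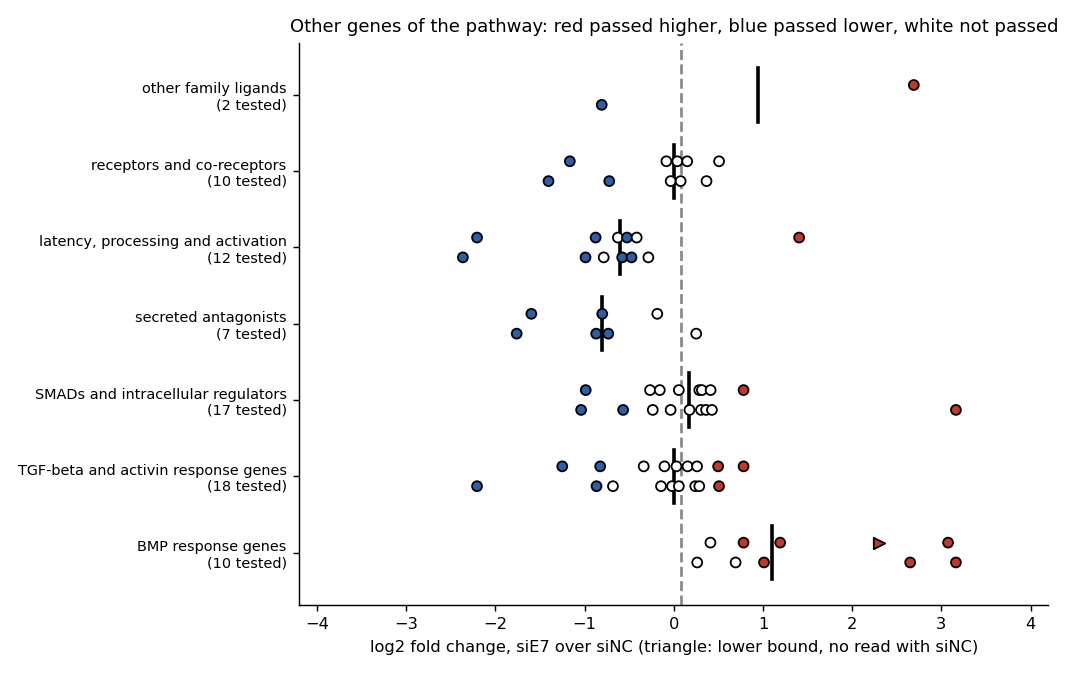
Log2 fold change of siE7 over siNC for every tested gene of the 7 pathway lists, 1 point per gene, coloured by the test, with a black tick at the median of each list. The triangle is ATOH8, without a read in any siNC library, drawn at its lower bound of 2.30, the BMP response genes have a median of 1.10 and the secreted antagonists one of −0.80.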

How the data were processed

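Gene expression was measured by RNA sequencing in 3 siNC and 3 siE7 libraries of SCC-9 cells (poly(A) RNA, directional kit, Illumina, paired reads of 150 bases). The values deposited by the authors are raw read counts per gene, without normalization. The submitters' processing notes name HISAT2, DESeq2 and GRCh38. The counting tool, the annotation release and the use of strand in counting are not given in the sources used here. Samples were grouped by their titles.

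Genes were filtered by filterByExpr of edgeR 4.0.16 (R 4.3.3), libraries were scaled by TMM, and siE7 was compared with siNC by the robust quasi-likelihood F-test over 14661 genes. The SE is the log2 fold change divided by the square root of F. Ratios were taken after adding 0.5 to each count and tested by the exact two-sided permutation test. Exon lengths and overlaps come from GENCODE v44, in which 25283 of 25349 identifiers were matched without their version, and promoters from RefSeq on GRCh38.p14, with an entry for 8 of the 10 genes. The DEG rule was checked on simulated data in which 200 of 14398 genes were given a 4-fold change. Of these 191 were called DEGs, with 1 unchanged gene. No simulated library was set apart as siE7 replicate 1 was, and fewer genes were changed than passed here. The check therefore does not cover these features of the data.

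Alternatives were DESeq2 1.42.0, limma-voom (limma 3.58.1), RLE, upper-quartile or no composition scaling, no filter, at least 10 counts in every library, a replicate block, 1 added to counts in ratios, and each library left out. Results of the pathway lists without siE7 replicate 1 or composition scaling were chosen after seeing the data. The members and lists were chosen with earlier results of these data known. BMP2 and INHBB had the smallest p-value among the members that passed as higher and as lower. Genes named are all members, MKI67, in each pathway list up to 4 DEGs in each direction with the smallest p-values, the 3 receptors and 3 SMAD regulators of highest mean level, genes that overlap a member, and the 3 genes most alike to BMP2 and to INHBB. Those of them that the text does not need are left out, and some items are not reported here. Tables and figures were made with Python 3.11.15, pandas 2.3.3 and matplotlib 3.10.9.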

Additional observations from a re-analysis of the deposited data

How the results depend on the processing

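INHBA, INHBB, FST, TGFB2 and BMP2 kept their direction and passed the test under every alternative, and of the 9 tested members only TGFB1 changed sign, at 0.02 without composition scaling, which did not pass. With each library left out in turn, 5 to 8 members and 3153 to 8765 genes passed. Without siE7 replicate 1, 2 receptors and 1 secreted antagonist were higher, 8 SMADs and regulators were higher and 7 lower, and 8 response genes of TGF-β and activin were lower. Without composition scaling 1 secreted antagonist, FSTL3, was higher, and 76.2% of DEGs were higher where the share was 60.4%. The cause was not tested. No label says that equal replicate numbers mark paired samples. Over genes, deviations from the group mean in same-numbered libraries correlated at −0.036, −0.018 and −0.047. With 3 libraries per group and siE7 replicate 1 set apart, a small shared effect could be missed, so these values cannot decide on pairing. With a replicate block 4947 genes and 5 members passed, and 4 members were DEGs. TGFB3, GDF15 and BMP4 rest on 10 to 52 reads per library, which limits their precision. The same limit holds for some listed genes that passed. In the siNC libraries INHBE had 13, 9 and 9 reads, LTBP1 had 8, 11 and 13, and ID2 had 15, 22 and 22.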

Other observations

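The gene whose pattern over the 6 libraries was most like that of INHBB, by the root mean square of the differences in log2 CPM after subtracting each gene's siNC mean, was SPRR1B (0.0793), a cornified envelope protein. For BMP2 the 3 closest were WDR19 (0.121), a protein of intraflagellar transport, ZNRD2-AS1 (0.124) and the zinc finger gene ZNF227 (0.135). They were chosen among 14660 genes compared with each, and the likeness is a description of these 6 libraries.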
